A study of Mus musculus with 4 samples.

Results

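Repeat-silencing genes were described in total RNA of mouse embryonic fibroblasts (MEF cells) that either carried or lacked topoisomerase IIβ (Top2β), an enzyme that passes one DNA duplex through another and that, unlike Top2α, is also made in resting cells. The 9 genes were taken by name from the deposited count table, which holds 54842 gene identifiers. They are Mphosph8, Fam208a (also named Tasor), Pphln1, Morc2a, Morc3, Atrx, Daxx, Hells and Smchd1. Each of the 9 was found and each passed the filter on low counts, with between 2807 and 34007 counts per library. The series held 4 libraries, 2 from wild-type (wt) MEF cells and 2 from Top2β-null MEF cells. Both groups were untreated cells grown in DMEM with 10% FBS. The Top2β-null line was derived from Top2β-null mice and the wt line came from another source, so genotype and origin of the cells cannot be told apart in these data. Nothing in the labels states that the 2 libraries of a group came from separate cultures, and p-values then measure only the spread between these samples.

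The proteins in question keep repeats and other dispersed sequences silent in chromatin. The HUSH complex is built from the scaffold TASOR, the chromodomain protein MPP8 (gene Mphosph8), which reads methylated histone H3 lysine 9, and Periphilin (gene Pphln1), which binds RNA. It works with the ATPase MORC2 and the H3 lysine 9 methyltransferase SETDB1, and it is best known for silencing young LINE-1 elements and recently integrated genes. MORC3 is a related ATPase found at PML bodies. ATRX is a remodeller that works with DAXX, a chaperone of histone H3.3, at telomeres, pericentric satellites and endogenous retroviruses. HELLS (also called LSH) is a remodeller needed for DNA methylation of repeats, and SMCHD1 is a non-canonical SMC protein known for the inactive X chromosome, imprinted clusters and clustered protocadherin genes.

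The targeted gene was examined first. For Top2b, wt replicates had 18259 and 18465 normalized counts and Top2β-null replicates 3879 and 3789, which gives a log2 fold change of -2.26 ± 0.0271 (SE). Normalized counts are counts scaled to a common library size, and every log2 fold change here is Top2β-null over wt. The counts do not separate the deleted part of the gene from the rest of its transcript. Totals ranged from 133116830 to 149647278 counts per library, of which repeats took 19.3% to 19.5% in wt and 20.3% to 21.4% in Top2β-null MEF cells. All 10 fibroblast markers were detected, the lowest at 223.1 normalized counts, but they differed between the groups. By edgeR 4 were higher and 5 lower in Top2β-null MEF cells, and 6 met the cut-offs given below: Dcn (log2 fold change 4.99), Thy1 (2.07), Pdgfrb (1.88) and Pdgfra (1.16) with a rise, Col1a1 (-1.38) and Col3a1 (-1.01) with a fall. Their sum was 1312200 to 1336200 normalized counts in wt and 893320 to 898230 in Top2β-null. Of the markers of other cells, 6 of 8 for leukocytes, 4 of 6 for epithelium, 3 of 5 for pluripotent or germ cells and 0 of 4 for endothelium stayed under 10 counts in every library. Kdr, an endothelial marker, went from 71 counts in each wt library to 196 and 207, Nanog from 3 and 1 to 42 and 43, and Itgam from 1 in each to 27 and 29. Others were lower: Tek, also endothelial, went from 43 and 36 counts to 9 and 4, and the epithelial markers Krt8 from 45 and 47 to 6 and 4 and Cdh1 from 19 and 24 to 7 and 9. The endothelial markers Pecam1 and Cdh5 did not pass the test. Csf1r, a leukocyte marker, was at 733 and 794 counts in wt and 929 and 987 in Top2β-null, while Ptprc and Tyrobp, which define leukocytes, reached at most 7 and 0. The part of these differences in the results on the silencers was not tested. The Y-linked genes Ddx3y, Uty, Eif2s3y and Kdm5d summed to 13383 and 13245 normalized counts in wt and to 26511 and 26502 in Top2β-null, so the groups differed in their Y-linked RNA as well. Xist had at most 24.8, so that an inactive X chromosome, a main site of SMCHD1, was not detectable by its Xist RNA.

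Over all 9 genes, 7 passed the test, 3 of them higher (Hells, Morc3 and Atrx) and 4 lower (Pphln1, Smchd1, Morc2a and Daxx) in Top2β-null MEF cells. The test was edgeR's quasi-likelihood F test with Benjamini-Hochberg adjustment over 26566 genes and repeat families, at an adjusted p below 0.05. Of all 25085 genes tested, 32.8% were higher and 33.7% lower by this test, so passing it was common. The groups did not overlap for 8 of the 9 genes, against 81.9% of all genes tested. None of the 9 met the study's cut-offs, which also ask for a change above 1 on the log2 scale in either direction and for a mean over 100 normalized counts. These were met by 10.8% of genes. With DESeq2 0 of the 9 met them too, and at an unadjusted p under 0.05 the edgeR count was again 7. The median log2 fold change of the 9 genes was -0.046, beside -0.015 over the 16656 genes with a mean above 100 normalized counts. Without regard to sign the medians were 0.26 and 0.353, the smaller value belonging to the silencers. The largest coefficient of variation within a group was 4.02%. In such bulk RNA, fewer cells that express a gene and less of its RNA per cell cannot be told apart.

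**Figure D1:**
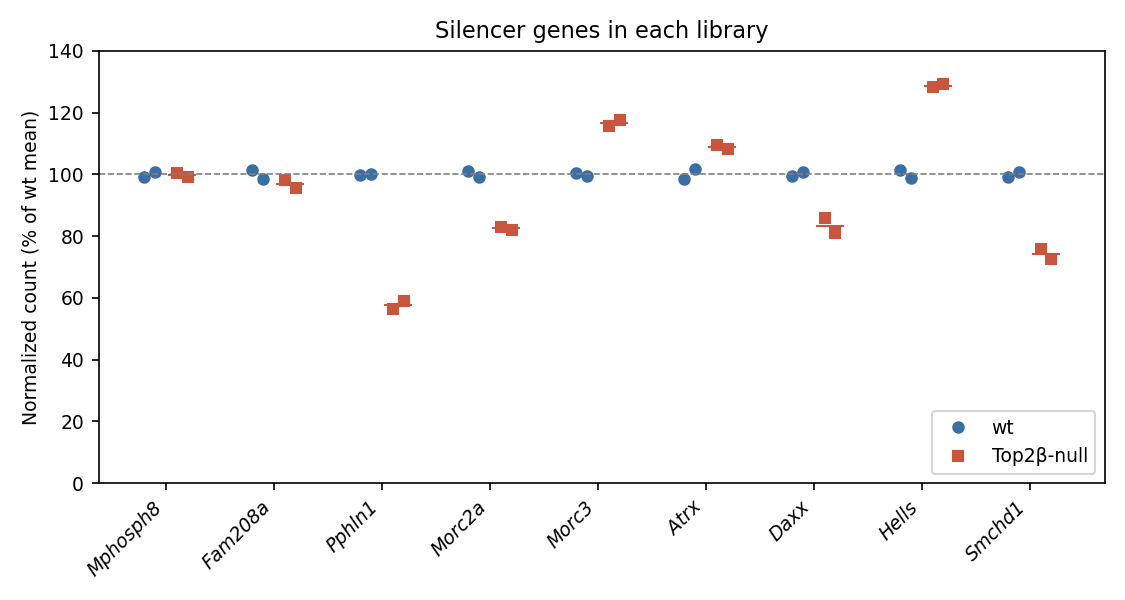
Normalized counts of the 9 silencer genes in each library, as a percentage of the wt mean of that gene (y axis). Circles are the 2 wt libraries, squares the 2 Top2β-null libraries and short lines the group means. Pphln1 sat lowest at 57.7% of wt by the fitted fold change and Hells highest at 129%.

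The promoters of the 3 genes with the largest absolute change are shown because they are the start regions from which the changed transcripts are annotated. Each window runs from 250 bases before to 50 bases after a RefSeq start on GRCm38.p6, is written on the strand of the gene, and holds 300 bases. Capitals mark matches, on either strand, to 5 motifs that were searched: E2F (TTTNGCGC), ETS (CCGGAAG), NRF1 (GCGCATGC), YY1 (AAGATGGCG) and the TATA box (TATAAA). Pphln1 starts at 2 nearby positions, and the first window is chr15:93398100-93398399 on the forward strand. The Smchd1 window is chr17:71475294-71475593 on the reverse strand and the Hells window is chr19:38930740-38931039 on the forward strand.
Pphln1: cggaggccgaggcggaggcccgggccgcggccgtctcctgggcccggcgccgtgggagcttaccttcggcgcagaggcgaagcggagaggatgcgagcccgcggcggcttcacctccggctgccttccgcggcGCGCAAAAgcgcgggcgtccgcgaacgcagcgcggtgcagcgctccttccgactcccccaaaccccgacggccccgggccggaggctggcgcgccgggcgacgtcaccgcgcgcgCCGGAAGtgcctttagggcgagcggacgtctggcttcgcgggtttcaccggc
Smchd1: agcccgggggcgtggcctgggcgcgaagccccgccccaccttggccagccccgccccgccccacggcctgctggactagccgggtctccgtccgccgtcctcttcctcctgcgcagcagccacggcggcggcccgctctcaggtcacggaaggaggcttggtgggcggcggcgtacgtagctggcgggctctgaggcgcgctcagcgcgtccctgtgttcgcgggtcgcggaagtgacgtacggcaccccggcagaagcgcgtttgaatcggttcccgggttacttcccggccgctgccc
Hells: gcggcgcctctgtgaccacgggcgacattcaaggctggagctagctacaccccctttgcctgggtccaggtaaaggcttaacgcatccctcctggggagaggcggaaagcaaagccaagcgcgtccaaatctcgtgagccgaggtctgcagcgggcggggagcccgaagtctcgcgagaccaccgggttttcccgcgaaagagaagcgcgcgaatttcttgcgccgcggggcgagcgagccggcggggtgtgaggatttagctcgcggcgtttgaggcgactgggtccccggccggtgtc

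The Pphln1 window had a GC content of 76.7% with 53 CpG dinucleotides, that of Smchd1 74.0% with 40, and that of Hells 65.7% with 34. Over all 32817 windows of this length the medians were 52.7% and 7, so all 3 were rich in CpG. So were the windows of Mphosph8 (67.0% and 28) and Fam208a (68.0% and 32), which did not pass the test. In the Pphln1 window the E2F letters matched the reverse strand at -117 to -110, and the ETS letters matched the forward strand at -2 to 5, across the start. E2F matched 1.38% of all windows and ETS 8.86%. No motif matched the Smchd1 or the Hells window, which says only that these letters are not in them. Among the 13 windows of the 9 genes, NRF1 (2.71% of all windows) also matched Morc3 at -39 to -32 on the reverse strand and the second Pphln1 window at 32 to 39. ETS matched Daxx at 2 positions, which all 3 of its overlapping windows hold. The E2F and NRF1 letters can share bases, but no 2 matches overlapped. The TATA box (13.6% of all windows) matched only the second Morc2a window, which had 0 CpG dinucleotides, and YY1 (1.40%) matched none. The 5 genes with no match in any window included the 2 HUSH genes that did not pass the test (Mphosph8 and Fam208a), Atrx, which was higher, and Hells and Smchd1, which moved in opposite directions.

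Within HUSH, Pphln1 fell while the other 2 core subunits did not pass the test. Pphln1 (ENSMUSG00000036167.16, chromosome 15, 93398350 to 93491510, forward strand) had 20854 and 20949 normalized counts in wt and 11769 and 12331 in Top2β-null MEF cells. Both Top2β-null libraries lay far below both wt libraries. The mean went from 20902 ± 67.2 to 12050 ± 397 (SD, n = 2 each), a log2 fold change of -0.79 ± 0.0270 (SE, 95% interval -0.85 to -0.74, edgeR adjusted p = 2.4e-13), which is 57.7% of wt. Of the genes with a mean above 100 normalized counts, 21.7% moved at least this far in either direction.

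Mphosph8 (ENSMUSG00000079184.10, chromosome 14, 56668248 to 56697430, forward strand) had 2871 and 2914 normalized counts in wt and 2907 and 2867 in Top2β-null MEF cells. The groups overlapped, and the log2 fold change was -0.0029 ± 0.0386 (SE, 95% interval -0.085 to 0.079, edgeR adjusted p = 0.953). Fam208a (ENSMUSG00000040651.9, chromosome 14, 27428834 to 27483555, forward strand) had 7021 and 6828 in wt and 6794 and 6616 in Top2β-null MEF cells. Here the Top2β-null libraries lay just below the wt libraries, and the nearest pair of libraries from the 2 groups was closer than the 2 wt libraries were to each other, with a log2 fold change of -0.046 ± 0.0282 (SE, 95% interval -0.11 to 0.014, edgeR adjusted p = 0.164). For both genes the interval is narrow, so a change as large as that of Pphln1 lies outside it.

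The subunits can also be set against each other within a library, where no scaling between libraries enters. The log2 ratio of Pphln1 to Fam208a counts was 1.571 and 1.617 in wt and 0.7927 and 0.8982 in Top2β-null, a difference of -0.75 with a pooled replicate SD of 0.0577. That of Mphosph8 to Fam208a was -1.290 and -1.228 in wt and -1.225 and -1.206 in Top2β-null, a difference of 0.044 with a pooled SD of 0.0321. The Pphln1 ratio thus moved by many times its replicate spread and the Mphosph8 ratio by little more than its own. With 2 libraries against 2, the two-sided exact permutation test cannot give a p below 0.33, which is what it gave for each of the 4 ratios computed here, also after adjustment over the 4.

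The 3 genes with a profile closest to that of Pphln1 over the 4 libraries were Praf2, Mob3a and Map2k7, with log2 fold changes of -0.80, -0.81 and -0.80. Likeness was the Euclidean distance of centred log2 normalized counts, 0.0119, 0.0133 and 0.0150 in that order. The pattern was not particular to Pphln1, as 368 of 16656 genes lay within a distance of 0.1.

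Of the MORC ATPases, Morc2a fell and Morc3 rose. Morc2a, which encodes the ATPase that compacts chromatin for HUSH (ENSMUSG00000034543.14, chromosome 11, 3649191 to 3690477, forward strand), had 15994 and 15678 normalized counts in wt and 13123 and 12996 in Top2β-null MEF cells. Both Top2β-null libraries were lower, at 82.5% of wt, with a log2 fold change of -0.28 ± 0.0248 (SE, 95% interval -0.33 to -0.23, edgeR adjusted p = 5.3e-08). Morc3 (ENSMUSG00000039456.10, chromosome 16, 93832121 to 93876073, forward strand) had 4706 and 4660 in wt and 5414 and 5511 in Top2β-null MEF cells. Both Top2β-null libraries were higher, at 117% of wt, with a log2 fold change of 0.22 ± 0.0296 (SE, 95% interval 0.16 to 0.29, edgeR adjusted p = 6.1e-06). The log2 ratio of Morc2a to Morc3 fell by 0.50 between the groups, from 1.765 and 1.750 in wt to 1.277 and 1.238 in Top2β-null MEF cells, with a pooled SD of 0.0210.

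Of the remaining MORC genes, Morc4 was the 1 with enough counts to be tested. It had 3239 and 3205 normalized counts in wt and 2864 and 3004 in Top2β-null. Its log2 fold change was -0.13 ± 0.0396 (SE, edgeR adjusted p = 0.0071). This call was lost when counts were scaled to the total (log2 fold change -0.065) and when Top2β-null replicate 1 was left out (-0.062). Morc2b, the retrogene relative of Morc2a, had 4, 6, 2 and 11 counts in wt replicates 1 and 2 and Top2β-null replicates 1 and 2, and the germline gene Morc1 had 1, 0, 0 and 0. Neither entered the test.

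Atrx rose slightly and Daxx fell, so the 2 partners of the H3.3 pathway moved apart. Atrx (ENSMUSG00000031229.16, chromosome X, 105797615 to 105929403, reverse strand) had 19353 and 19993 normalized counts in wt and 21547 and 21286 in Top2β-null MEF cells. It was at 109% of wt, with a log2 fold change of 0.12 ± 0.0256 (SE, 95% interval 0.068 to 0.18, edgeR adjusted p = 5.4e-04). It was 0.19 with scaling to the total count and 0.084 without wt replicate 1 (edgeR adjusted p = 0.0328). With all 4 libraries this gene had the smallest change among those that passed, and 80.3% of genes with a mean above 100 normalized counts moved at least as far. Daxx (ENSMUSG00000002307.15, chromosome 17, 33909414 to 33915590, forward strand) had 3581 and 3633 in wt and 3094 and 2923 in Top2β-null MEF cells. It was at 83.4% of wt, with a log2 fold change of -0.26 ± 0.0395 (SE, 95% interval -0.35 to -0.18, edgeR adjusted p = 2.3e-05). The log2 ratio of Atrx to Daxx was 2.434 and 2.460 in wt and 2.800 and 2.865 in Top2β-null MEF cells, higher by 0.39 with a pooled SD of 0.0348.

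Hells was the silencer with the largest rise. Hells (ENSMUSG00000025001.11, chromosome 19, 38930915 to 38971051, forward strand) had 24061 and 23461 normalized counts in wt and 30438 and 30683 in Top2β-null MEF cells. Both Top2β-null libraries were higher, at 129% of wt, with a log2 fold change of 0.36 ± 0.0252 (SE, 95% interval 0.31 to 0.42, edgeR adjusted p = 2.3e-09). HELLS is abundant in cycling cells. Of 12 proliferation genes 7 were higher and 3 lower by the same test, beside 32.8% and 33.7% of all genes. Their median log2 fold change was 0.099, and single genes ranged from -0.33 (Pcna) to 0.97 (Ccne1). Without wt replicate 1, 5 were higher and 3 lower with a median of 0.048, and with scaling to the total count the median was 0.17. Their summed normalized counts were 308820 to 317330 in wt and 327900 to 328630 in Top2β-null MEF cells, and their part in the Hells result was not tested.

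Smchd1 was the second most reduced of the 9 genes. Smchd1 (ENSMUSG00000024054.14, chromosome 17, 71344489 to 71475343, reverse strand) had 32288 and 32847 normalized counts in wt and 24639 and 23666 in Top2β-null MEF cells. It was at 74.2% of wt, with a log2 fold change of -0.43 ± 0.0269 (SE, 95% interval -0.49 to -0.37, edgeR adjusted p = 5.9e-10). The 5 annotated genes that overlap Smchd1 and were tested were also lower, with log2 fold changes from -0.28 (Gm4707) to -0.53 (AC107664.1), 3 on the same strand and 2 on the opposite one. The library kit kept strand, but the strand setting of the counting is not given in the sources used here, so reads of Smchd1 and of these genes may not be fully separated.

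**Figure D2:**
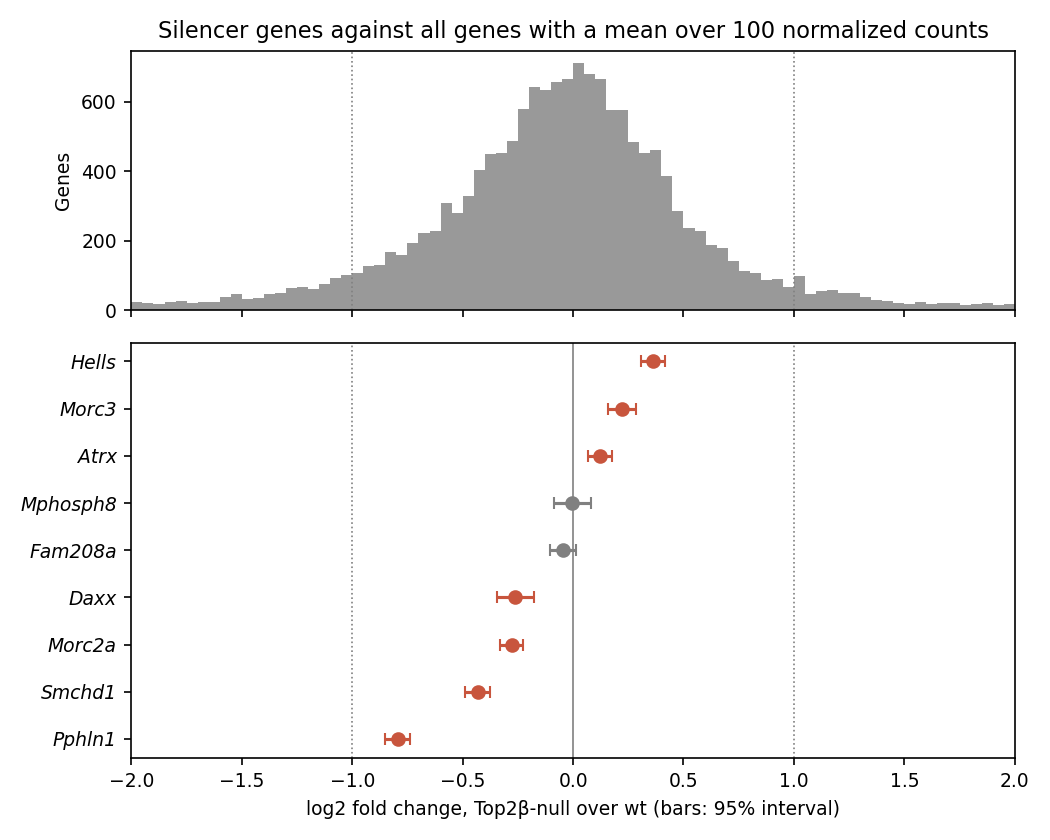
Log2 fold change of Top2β-null over wt (x axis) for the 9 silencer genes (lower panel, points with 95% intervals, grey where the adjusted p was 0.05 or more) under the distribution of the log2 fold change over genes with a mean above 100 normalized counts (upper panel, number of genes on the y axis). Dotted lines mark the cut-off of 1 in each direction, the axis ends at 2, and all 9 genes lie inside the dotted lines, from -0.79 to 0.36.

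Other silencers overlap annotated genes too. Tug1, an abundant non-coding gene on the opposite strand to Morc2a, had 13890 and 13925 normalized counts in wt and 13936 and 14318 in Top2β-null MEF cells, and its log2 fold change of 0.023 (edgeR adjusted p = 0.451) lay apart from that of Morc2a. Gm26393, also opposite to Morc2a and much lower at 120 and 135 normalized counts in wt, had a log2 fold change of -0.27 close to that of Morc2a (edgeR adjusted p = 0.152). Ccdc66, opposite to Fam208a, had a log2 fold change of -0.036 (edgeR adjusted p = 0.423). Gm16973, opposite to Mphosph8, had one of 0.17 (edgeR adjusted p = 0.0151).

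Mphosph8 and Fam208a lie on chromosome 14 with Top2b, at 40.3 and 11.1 Mb from it. Of the 907 tested genes on that chromosome, 69.2% passed the test, 206 higher and 422 lower, beside 66.3% of 23322 genes on the other autosomes. Chromosome 14 genes met the cut-offs more often, 17.1% beside 10.5%, and their median log2 fold change was -0.21 beside 0.0076. Within 10 Mb of Top2b, 70.1% of 147 genes passed and 11.6% met the cut-offs. Among the 10 tested genes nearest to Mphosph8, 3 passed and 0 met the cut-offs, and among those nearest to Fam208a, 5 passed and 2 met the cut-offs. Both silencers were thus among the genes of this chromosome that did not pass.

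Levels can be compared between genes only per length. On the TPM scale, that is counts per kilobase of annotated exon scaled to the same total in each library, Pphln1 had the highest level in wt MEF cells at 106.2 ± 1.03 (SD, n = 2), followed by Hells at 76.2 ± 2.34, Morc2a at 57.0 ± 1.54 and Smchd1 at 37.7 ± 0.0289. Daxx followed at 26.4 ± 0.0734, Atrx at 20.9 ± 0.21, Morc3 at 19.9 ± 0.396, Mphosph8 at 18.6 ± 0.0465 and Fam208a at 11.7 ± 0.383. No neighbours in this order overlapped between libraries. The closest were Atrx, with 20.74 and 21.04, and Morc3, with 20.21 and 19.65. In Top2β-null MEF cells Hells came first at 106.9 ± 0.439 and Pphln1 second at 66.8 ± 1.55, so these 2 changed places on this scale. Daxx (24.92 and 23.22) and Atrx (25.14 and 24.49) overlapped there. Morc3 (25.31 and 25.40), which was below both in wt, lay above both in Top2β-null MEF cells. Fam208a stayed lowest, at 12.4 ± 0.354. Differences between the groups on this scale are not the fitted log2 fold changes, which use another scaling. Mphosph8 went from 18.6 in wt to 20.3 in Top2β-null and Fam208a from 11.7 to 12.4, where the fit gave -0.0029 and -0.046. Within HUSH the level of Pphln1 exceeded those of Mphosph8 and Fam208a in both groups. This order depended on the length used. With the longest annotated transcript in place of all exons, the highest levels in wt were those of Pphln1 (111.9), Smchd1 (88.35) and Hells (77.48), and Atrx moved ahead of Daxx at 36.63. In Top2β-null MEF cells Hells (109.1) was then followed by Smchd1 (71.79 ± 2.74) and Pphln1 (70.67 ± 1.65), which lay within their replicate SD of each other. Fam208a was last in both groups with either length.

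**Figure D3:**
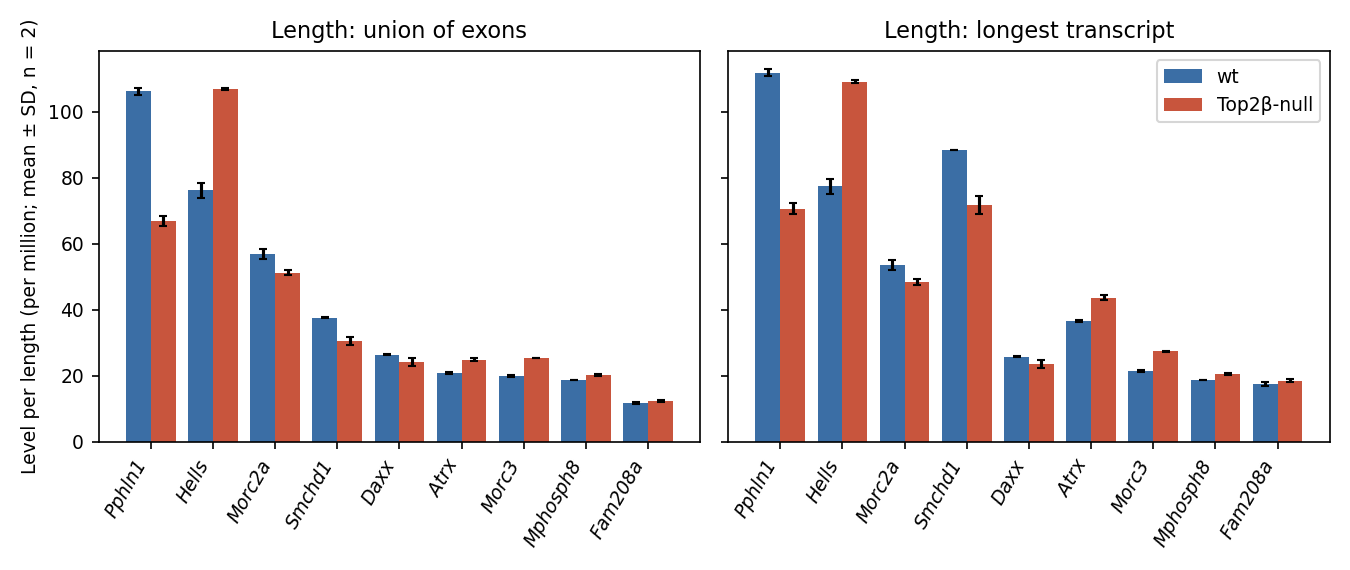
Levels of the 9 silencer genes per length (y axis, TPM, starting at 0) as group means with SD of 2 libraries, for wt and Top2β-null MEF cells. The scaling differs from that of the fitted fold changes. Lengths are the union of exons on the left and the longest annotated transcript on the right, and Pphln1 and Hells exchange the first place between wt and Top2β-null in the left panel.

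A list of 34 partner genes gave the setting of these changes. Of them 32 were tested, and 15 were higher and 14 lower, beside the 32.8% and 33.7% of all genes. The number lower was 9 with scaling to the total count and 10 without Top2β-null replicate 1. Their median log2 fold change was -0.0016. By the cut-offs 1 was lower (Asf1b). Sp100 met them with a rise, but it reached the filter on low counts only through the Top2β-null libraries, so its call is not a result. The 15 higher partners include it, and 14 were higher when each library had to reach 100 counts.

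The list held 6 partners of HUSH beside MORC2, whose gene Morc2a is 1 of the 9 silencers and was lower (log2 fold change -0.28). The 6 listed were higher, with a median log2 fold change of 0.35, and stayed so under each of the 11 alternatives tried. The closest relative of a member was Fam208b (Tasor2), the paralog of Fam208a, which had 14570 and 15127 normalized counts in wt and 16669 and 16649 in Top2β-null MEF cells. Its log2 fold change was 0.17 ± 0.0259 (SE, edgeR adjusted p = 3.4e-05), while Fam208a itself did not pass. Setdb1, the H3 lysine 9 methyltransferase of the pathway, had 9416 and 9517 in wt and 13894 and 13804 in Top2β-null MEF cells, a log2 fold change of 0.55. The other 4 were Resf1 (0.43) and Atf7ip (0.11), both partners of SETDB1, Trim28 (0.26), the corepressor that recruits SETDB1 to zinc finger proteins, and Zfp638 (0.43), which brings HUSH to unintegrated DNA. These 5 and the genes named next without a stated rule were chosen after their values were seen.

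Among 14 partners of ATRX and DAXX, 6 were higher, Sp100 included, and 6 lower. When each library had to reach 100 counts, 13 were tested, with 5 higher and 6 lower. Asf1b, a chaperone of histones H3 and H4 in replicating cells, had 14310 and 14557 normalized counts in wt and 6628 and 7003 in Top2β-null MEF cells, a log2 fold change of -1.08 ± 0.0290 (SE, edgeR adjusted p = 1.2e-14). Its paralog Asf1a had 0.023 and did not pass. Sp100, a component of PML bodies, had 0 counts in both wt libraries, while the Top2β-null replicates had 464 and 475 normalized counts, at least 159-fold higher against a floor of 3 counts per library. Sp100 lies beside near-identical copies in the mouse genome, so its counts are uncertain. Pml rose by 0.59 on the log2 scale, and Cbx5, which encodes HP1α, fell by 0.63. The H3.3 genes H3f3a and H3f3b had log2 fold changes of 0.39 and -0.080, the latter with an adjusted p of 0.0111 in edgeR. With scaling to the total count, 4 of the 14 partners were lower instead of 6.

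Of 7 partners of HELLS, 5 were lower and 1 higher, the opposite balance to Hells itself, and the counts were the same under each of the 11 alternatives. The median was -0.37. Cdca7, which encodes the zinc finger protein that activates HELLS, had a log2 fold change of -0.37, Cdca7l -0.48, Zbtb24 -0.44, Uhrf1 -0.59 and the de novo methyltransferase gene Dnmt3b -0.30. Dnmt3a, the other de novo methyltransferase gene, had 1389 and 1340 normalized counts in wt and 2710 and 2677 in Top2β-null MEF cells. It was at 197% of wt, with a log2 fold change of 0.98 ± 0.0457 (SE, edgeR adjusted p = 1.3e-11). Dnmt1, the maintenance methyltransferase gene, had -0.035 and did not pass (edgeR adjusted p = 0.241).

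Of the 4 partners of SMCHD1, 2 were higher and 2 lower. Lrif1, which encodes the protein that links SMCHD1 to HP1, had 2649 and 2603 normalized counts in wt and 4363 in each Top2β-null library, a log2 fold change of 0.73 ± 0.0359 (SE, edgeR adjusted p = 2.7e-11). Cbx3, which encodes HP1γ, had 0.49. Cbx1 and Hnrnpk had -0.079 and -0.11, and neither passed when counts were scaled to the total. Only 1 of the 2 passed with DESeq2, with TMM factors from genes alone or with no filter. Calls were also lost in fits with a library left out.

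**Figure D4:**
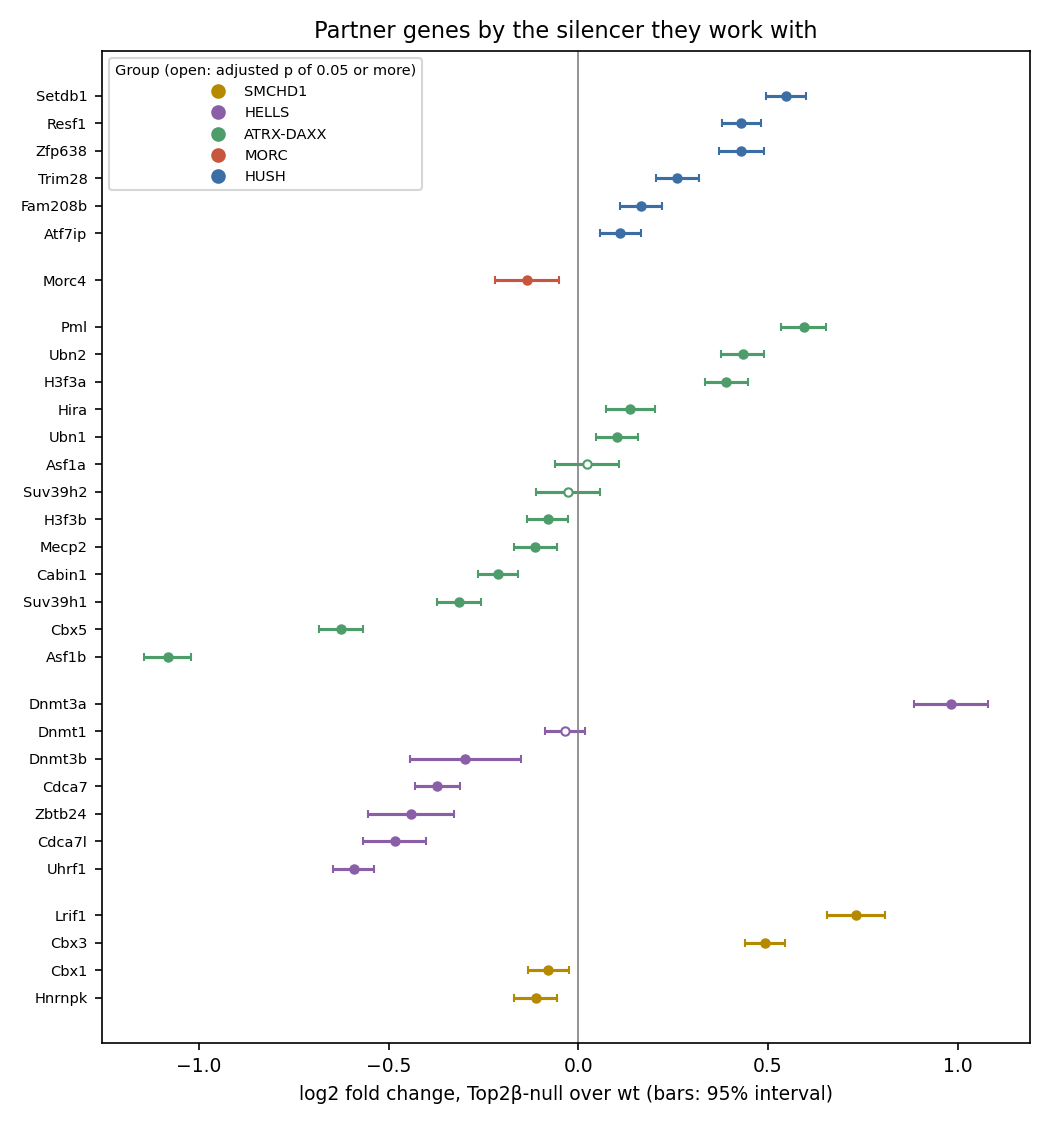
Log2 fold change of Top2β-null over wt (x axis, with 95% intervals) for 31 of the 32 tested partner genes, coloured by the silencer they work with. Open circles had an adjusted p of 0.05 or more, and Sp100 is left out because both wt libraries were at 0. The 6 listed HUSH partners, which do not include Morc2a (-0.28), lie right of 0, and 5 of 7 HELLS partners lie left of it with closed circles.

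The repeats that these proteins act on were read from the same table. Of 22 listed families 18 were higher and 1 lower, while 27.6% of all 1481 repeat families tested were higher and 12.5% lower. The median log2 fold change of the 22 was 0.15, beside 0.041 over all repeat families. The changes were mostly small, as 3 families met the cut-offs with a rise and 1 with a fall, against 1.15% of all families in either direction. Families share reads, and how reads that map to several places were divided is not given in the sources used here, so neighbouring families are not independent.

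Among 6 young LINE-1 families, the best known targets of HUSH and MORC2, 5 were higher with a median log2 fold change of 0.13. L1Md_T had 187275 and 189448 normalized counts in wt and 217234 and 199928 in Top2β-null MEF cells, a log2 fold change of 0.15 ± 0.0363 (SE, edgeR adjusted p = 0.0021). L1Md_A had 108843 and 109389 in wt and 120988 and 110972 in Top2β-null MEF cells, a log2 fold change of 0.088 (edgeR adjusted p = 0.0398). In both, Top2β-null replicate 1 was the high library. Top2β-null replicate 2 sat close above wt for L1Md_A and farther above it for L1Md_T. Of the 6 families 4 were higher without Top2β-null replicate 1 (median 0.11), without wt replicate 1 (0.11) or without wt replicate 2 (0.11), and 5 were higher without Top2β-null replicate 2 (0.20), where the median moved most among the fits with a library left out. With scaling to the total count it was also 0.20.

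Among 14 endogenous retrovirus families of the ERVK class, silenced by SETDB1 and by ATRX and DAXX, 12 were higher and none lower, with a median of 0.19. Without wt replicate 1, 10 were higher and 1 lower, and without Top2β-null replicate 1, 11 were higher and 1 lower. IAPEz-int, the most abundant of them, had 120561 and 121195 normalized counts in wt and 130911 and 126027 in Top2β-null MEF cells, a log2 fold change of 0.088 ± 0.0291 (SE, edgeR adjusted p = 0.015). The largest change was in IAPLTR3-int, from 170 and 154 to 1367 and 1264 normalized counts (log2 fold change 3.03). IAPEY4_I-int (1.81) and MMERVK10C-int (1.10) also met the cut-offs, and both were named after their values were seen. The 2 satellites, tied to ATRX and HELLS, moved in opposite directions. The major satellite GSAT_MM had 3463 and 3619 in wt and 5621 and 5501 in Top2β-null MEF cells (log2 fold change 0.65), and SYNREP_MM had 1258 and 1197 in wt and 238 and 294 in Top2β-null MEF cells (-2.20).

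**Figure D5:**
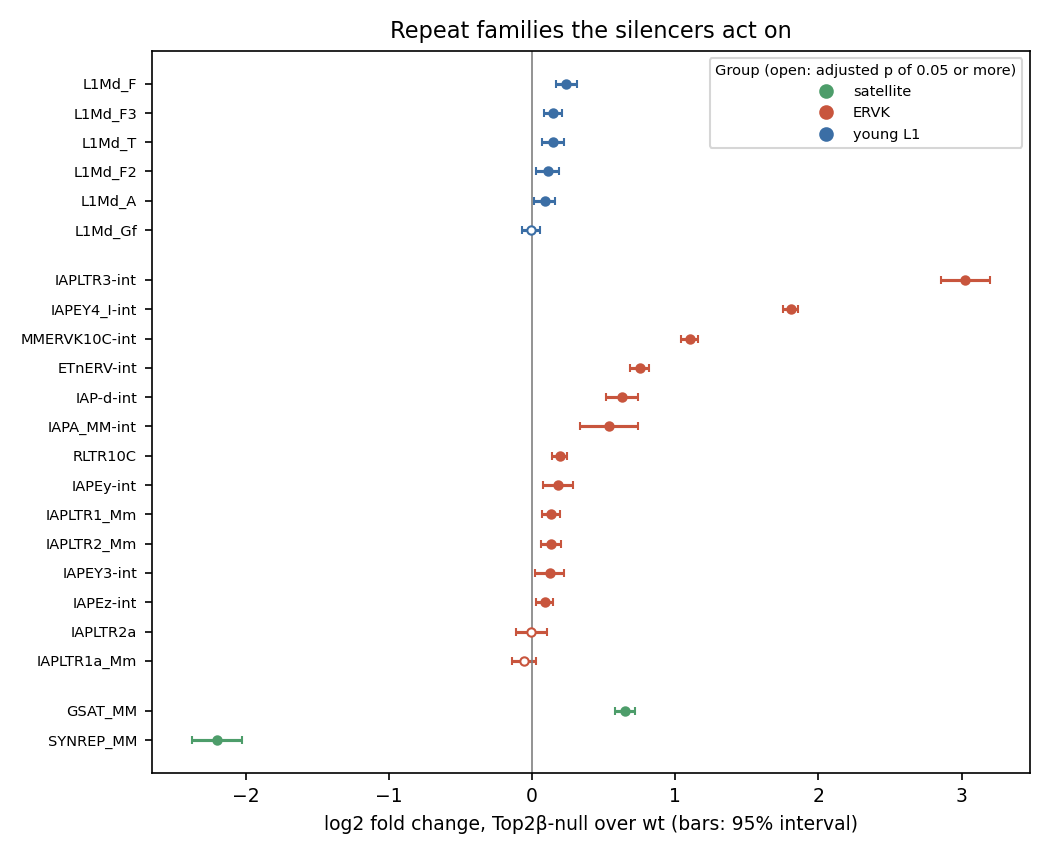
Log2 fold change of Top2β-null over wt (x axis, with 95% intervals) for the 22 listed repeat families in 3 classes. Open circles had an adjusted p of 0.05 or more. Of the 22 points, 18 are closed and lie right of 0, and IAPLTR3-int (3.03) and SYNREP_MM (-2.20) lie farthest out.

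Clustered protocadherin genes, which SMCHD1 is known to silence on autosomes, did not move as one. The raw counts of the 14 Pcdha genes summed to 1216 and 1312 in wt and 1 and 4 in Top2β-null MEF cells. These genes share exons, and they reached the filter on low counts only through the wt libraries, so how many of them came out lower is not a result. Of 22 Pcdhb genes 16 reached the filter on low counts, some of them only through the Top2β-null libraries, as 13 did when either of these was left out. The summed normalized counts of those 16 were 1338 and 1415 in wt and 7241 and 7227 in Top2β-null MEF cells. Because of that filter this sum is not a result for the cluster. When each library had to reach 100 counts, 4 Pcdhb genes were tested and 4 were higher, with a median log2 fold change of 1.90. With that filter 5634 of 15181 genes were higher. Of 22 Pcdhg genes 4 were higher and 2 lower. Most of the germline genes kept methylated with the help of HELLS stayed nearly silent in both groups, as 9 of 13 did not reach the filter on low counts. Of the 4 tested, Sycp1 had 0 counts in both wt libraries, while the Top2β-null replicates had 179 and 251, at least 73.2-fold higher against a floor of 3 counts per library. Rhox5 was higher (19.2 and 26.1 to 34.2 and 57.4 normalized counts, log2 fold change 1.01, edgeR adjusted p = 0.0148), and Taf7l was lower (57.5 and 62.8 to 35.2 and 33.7, -0.80, edgeR adjusted p = 0.0104).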

How the data were processed

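Total RNA of 2 wt and 2 Top2β-null samples of MEF cells was sequenced by the authors with a stranded, ribosomal RNA-depleted kit after DNase treatment. Reads were trimmed with Trim Galore!, aligned to mm10 with STAR and counted by TEtranscripts on Gencode genes and families of RepeatMasker, and the deposited values are raw counts per feature. Of 54842 gene identifiers, 54495 were matched to symbols and positions in GENCODE M21. From the counts, features reaching 10 counts in 2 or more libraries (25085 genes, 1481 repeat families) were scaled with TMM factors and tested with edgeR 4.0.16 in R 4.3.3 (quasi-likelihood F test, genotype as the only term, Benjamini-Hochberg over all features). Standard errors were taken as the size of the log2 estimate over the root of F. The scripts were tested on simulated data. Promoter windows came from RefSeq on GRCm38.p6. The members and all lists were chosen with earlier results of these data known. Named genes were the 9 silencers, the 4 partners with the largest absolute change, the nearest paralogs, fixed repeat families and checks, and others are said to have been chosen later. Alternatives were DESeq2 1.42.0, other scalings and filters, the replicate number as a block, and leaving out each library. Replicates differed by more than sampling noise (chi-square over its degrees of freedom: wt 3.652, Top2β-null 5.068). At these depths each of the 9 genes had at least 2807 counts per library.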

Additional observations from a re-analysis of the deposited data

How the results depend on the processing

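Calls and directions of Top2b and of the 7 silencers that passed held under all 11 alternatives, with log2 fold changes from -0.81 to -0.72 for Pphln1, -0.46 to -0.36 for Smchd1, -0.31 to -0.21 for Morc2a, -0.29 to -0.19 for Daxx, 0.084 to 0.19 for Atrx, 0.20 to 0.29 for Morc3 and 0.33 to 0.43 for Hells. In fits with a library left out, the lone sample is assumed to vary like the other group. Mphosph8 and Fam208a never passed and their sign was not fixed. For Mphosph8 the log2 fold change was 0.0049 with DESeq2 and 0.016 when TMM factors came from genes alone. It was 0.067 with scaling to the total count, 0.0074 with upper-quartile factors, 0.014 with no filter, 0.0038 when each library had to reach 100 counts, and -0.028 to 0.026 when each library was left out. That of Fam208a was 0.023 with scaling to the total count, which moved the median of genes with a mean above 100 normalized counts from -0.015 to 0.055. Partner genes called lower were 9 with that scaling instead of 14, and target repeat families called lower were 1 to 2 when each library was left out. With the longest annotated transcript the wt levels per length became 18.83 for Mphosph8, 17.46 for Fam208a, 111.9 for Pphln1, 53.57 for Morc2a, 21.44 for Morc3, 36.63 for Atrx, 25.82 for Daxx and 88.35 for Smchd1. The causes were not tested.

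With the replicate number as a block (replicate block), the values were -0.79 for Pphln1, -0.43 for Smchd1 and 0.36 for Hells, and no silencer's call changed, while 8086 genes were higher and 8302 lower instead of 8218 and 8445. Deviations of same-numbered libraries correlated at 0.0207 over 17952 features, so the numbers were not shown to pair the libraries. When each library had to reach 100 counts, 5634 genes were higher and 6128 lower of 15181 tested. That filter and leaving out a wt library removed all 14 Pcdha genes from the test.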
